A study of Rattus norvegicus with 9 samples.

Results

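The data described here are the transcript levels of 5 genes of the TNF and death receptor pathway in rat bone marrow-derived dendritic cells (BMDCs) stimulated with bacterial lipids. The genes are the ligand gene Tnfsf15, the receptor genes Fas, Tnfrsf21 and Tnfrsf1b, and Cflar, which encodes an inhibitor of caspase-8. They were taken as named, with earlier results of these data known. Each was located in the table of raw counts by the Ensembl gene ID that the study's gene table pairs with its symbol. That gene table lists genes the study had called against its vehicle, so that the members were open to selection by their response. The 5 genes are 5 of 32545 genes counted, and all of them were among the 12602 that passed the filter on low counts. RNA was sequenced from 9 libraries, 3 in each of 3 groups, which were described by the study as independent assays. The p-values measure the spread between these libraries.

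All 3 groups shared the same cells, namely wild-type BMDCs from Sprague-Dawley rats 8 to 12 weeks old, cultured to day 7 with GM-CSF at 20 ng/mL and FLT3-L at 200 ng/mL. Such a culture is a mixture of dendritic cell types rather than a clone. The treated cells received total lipids (TLs) of the gut bacterium Lactobacillus johnsonii N6.2 at 600 ng/mL in PBS, or the synthetic glycolipid α-galactosylceramide (α-GalCer) at 100 ng/mL in DMSO and PBS. The vehicle control received DMSO and PBS without lipid. Stimulation lasted 6 h, with 1000000 cells per well. The solvent of the TLs held no DMSO, so the presence of the TLs and the absence of DMSO cannot be told apart in any comparison with them.

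Ligands of the TNF superfamily bind receptors on the surface of immune cells and other cells. Some, but not all, receptors with a death domain in their cytoplasmic tail recruit the adaptor FADD and procaspase-8 into a death-inducing signalling complex. In that complex caspase-8 is activated and starts apoptosis. Receptors without a death domain recruit TRAF adaptors and lead to NF-κB and MAP kinase signalling. The product of Cflar, c-FLIP, resembles caspase-8 but lacks its activity, joins the same complex, and sets how much caspase-8 is activated there. In dendritic cells, members of this family are known both as costimulatory signals to T cells and as regulators of the dendritic cell's own lifespan.

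Libraries held between 15190820 and 20591105 counts. Levels are given as CPM, a gene's counts relative to the total of its library after TMM normalization, which allows for a few abundant genes taking up reads. At these depths 3 counts in a library correspond to 0.155 to 0.21 CPM, below the lowest level of any of the 5 genes. On the first principal component of all tested genes, which held 54.1% of the variance, the TL libraries lay between 44.8 and 45.6 and the other 6 between -25.1 and -20.8. Replicate 2 of the vehicle control stood apart on the second component (9.72%), at -32.6 against 14.9 and 15.6 for the other vehicle libraries. Of 8 markers of conventional dendritic cells, 3 had a symbol here (Itgax, Irf8 and Clec10a), with summed levels of 718 to 761 CPM in vehicle, 836 to 881 CPM with TLs and 658 to 715 CPM with α-GalCer. Within that sum Itgax went from 457 CPM in vehicle to 666 CPM with TLs, whereas Irf8 went from 224 to 182 CPM and Clec10a from 54.6 to 14.3 CPM. Of 7 macrophage and monocyte markers, 4 had a symbol (Cd14, Csf1r, Adgre1 and Mrc1), with summed levels of 1790 to 1880, 3260 to 3300 and 1760 to 1810 CPM. Among these 4, Cd14 went from 450 CPM in vehicle to 2420 CPM with TLs and Adgre1 from 19.2 to 66.6 CPM, whereas Csf1r went from 923 to 612 CPM and Mrc1 from 447 to 185 CPM. The neutrophil marker Mpo, the one of 6 with a symbol, was at 479 to 536, 427 to 435 and 468 to 497 CPM. Symbols were held only for genes that the study had called against vehicle. These markers were therefore open to selection by their response. The part of these marker levels in the results below was not tested. In bulk RNA a change in the share of a cell type and a change in RNA per cell cannot be told apart. Markers of T, NK, B, mast and erythroid cells had no symbol here and were not analysed.

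The stretches just before the starts of 4 of the genes are shown, for Fas, Tnfrsf1b and Cflar, which moved up with TLs, and for Tnfrsf21, which moved down. Tnfsf15 moved up as well, and its stretch was searched but is not printed. Each stretch is the 250 bases before the gene's start in the RefSeq annotation of the rat assembly GRCr8, written 5′ to 3′ on the gene's own strand. All 5 genes matched by symbol. Both strands were searched for the AP-1 motif TGANTCA, for TATAAA and for the NF-κB consensus, and the capitals mark the matches.
Fas (chr1:241211905-241212154, plus strand): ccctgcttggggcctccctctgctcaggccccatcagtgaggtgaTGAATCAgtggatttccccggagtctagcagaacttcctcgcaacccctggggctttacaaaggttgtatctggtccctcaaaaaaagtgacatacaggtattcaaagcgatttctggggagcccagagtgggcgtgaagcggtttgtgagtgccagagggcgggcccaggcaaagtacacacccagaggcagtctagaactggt
Tnfrsf1b (chr5:162387412-162387661, minus strand): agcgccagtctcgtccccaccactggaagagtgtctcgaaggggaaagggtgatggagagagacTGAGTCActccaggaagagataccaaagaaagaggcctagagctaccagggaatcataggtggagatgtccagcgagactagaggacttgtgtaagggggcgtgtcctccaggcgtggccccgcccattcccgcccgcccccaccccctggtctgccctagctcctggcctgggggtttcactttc
Cflar (chr9:67679299-67679548, plus strand): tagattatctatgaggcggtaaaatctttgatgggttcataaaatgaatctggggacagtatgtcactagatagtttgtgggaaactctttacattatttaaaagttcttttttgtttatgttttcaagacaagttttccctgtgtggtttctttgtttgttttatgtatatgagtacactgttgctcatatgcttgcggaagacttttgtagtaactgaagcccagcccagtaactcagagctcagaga
Tnfrsf21 (chr9:25451324-25451573, minus strand): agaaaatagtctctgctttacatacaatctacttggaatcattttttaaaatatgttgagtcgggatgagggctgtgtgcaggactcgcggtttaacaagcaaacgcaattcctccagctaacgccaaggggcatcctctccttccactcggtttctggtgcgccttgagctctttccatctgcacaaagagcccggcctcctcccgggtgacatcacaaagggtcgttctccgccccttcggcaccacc
The Fas stretch held 1 AP-1 match, TGAATCA, at -205 to -199 from the start, and the Tnfrsf1b stretch held TGAGTCA at -186 to -180. The stretches of Cflar, Tnfrsf21 and Tnfsf15 held no AP-1 match. AP-1 matches were present in 6.34% of 33469 rat promoters of the same length. The Tnfsf15 stretch, not printed, held TATAAA at -224 to -219, a match found in 12.9% of promoters. None of the 5 stretches held the NF-κB consensus, which was in 3.54% of promoters. A match is a description of the letters in this window and not a binding site.

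With TLs, 4 of the 5 genes rose and Tnfrsf21 fell against the vehicle control. A gene was called where edgeR's quasi-likelihood test gave an adjusted p below 0.01 and the log2 fold change exceeded 0.3 in either direction. All 5 passed in this comparison, in which 19.4% of the 12602 tested genes were called (9.77% higher and 9.67% lower). All 5 were also called against α-GalCer, where the share over all tested genes was 20.3% (9.85% higher and 10.5% lower). The members came from the 1839 tested genes with a symbol, which the study's table of called genes supplied. Of these, 38.9% rose and 37.7% fell against vehicle, and 37.8% rose and 37.1% fell against α-GalCer. The calls of the 5 genes are therefore not independent evidence of a response. Both comparisons use the same TL libraries. The libraries of the compared groups did not overlap for any of the 5 genes in either one. Groups without overlap were found for 46.1% of all tested genes against vehicle and for 51.0% against α-GalCer. The median log2 fold change of all tested genes was -0.02 in both.

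**Figure D1:**
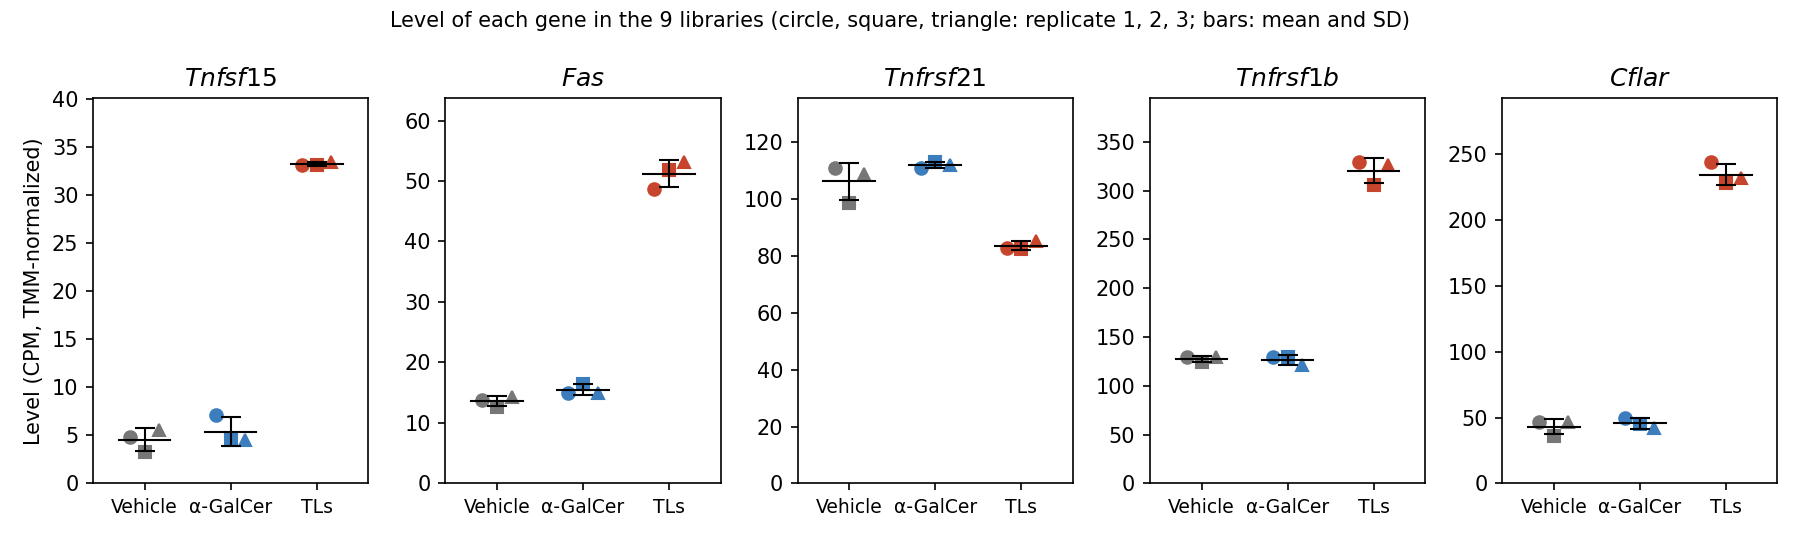
Level of each of the 5 genes in CPM (TMM-normalized, each axis from 0) in vehicle, α-GalCer and TL libraries. Circle, square and triangle are replicates 1, 2 and 3, and the bars are the mean and SD of 3 libraries. The TL libraries lie above all others for Tnfsf15, Fas, Tnfrsf1b and Cflar, and below all others for Tnfrsf21 (82.5 to 85.4 CPM against 98.8 to 113 CPM).

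Tnfsf15 (ENSRNOG00000008930) encodes TL1A, the ligand of the death domain receptor DR3 on T cells, and dendritic cells are one of its known sources. Its level in vehicle was 4.86, 3.24 and 5.6 CPM in replicates 1, 2 and 3. With α-GalCer it was 7.15, 4.52 and 4.52 CPM, and with TLs 33.1, 33.1 and 33.4 CPM. Every TL library lay far above every other library, while the vehicle and α-GalCer libraries overlapped. The means were 4.56 ± 1.21, 5.39 ± 1.52 and 33.2 ± 0.163 CPM (SD, n = 3) for vehicle, α-GalCer and TLs. Tnfsf15 was 7.26-fold higher with TLs than with vehicle, a log2 fold change of 2.86 (SE 0.21, 95% interval 2.39 to 3.33, edgeR adjusted p = 2.23e-06). Against α-GalCer the log2 fold change was 2.62 (SE 0.21, edgeR adjusted p = 3.69e-06). By size of the rise against vehicle it ranked 63 of 12602 genes. Its low control level rested on 238 counts over the 3 vehicle libraries against 1598 with TLs, and it had the widest relative spread of the 5 genes in vehicle, with an SD of 26.5% of the mean.

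Fas (ENSRNOG00000019142) encodes the receptor of Fas ligand, the best known of the death domain receptors. The 3 vehicle libraries were at 13.8, 12.7 and 14.3 CPM and the α-GalCer libraries at 15, 16.5 and 14.9 CPM. The TL libraries were at 48.7, 51.8 and 53.1 CPM. All TL libraries were above 3 times the highest vehicle library, and the α-GalCer libraries lay just above those of vehicle without touching them. The group means were 13.6 ± 0.796, 15.5 ± 0.93 and 51.2 ± 2.29 CPM (SD, n = 3), in the order just given. With TLs Fas was 3.77-fold higher than with vehicle (log2 fold change 1.91, SE 0.08, 95% interval 1.74 to 2.09, edgeR adjusted p = 2.65e-08). The log2 fold change against α-GalCer was 1.73 (SE 0.079, edgeR adjusted p = 4.89e-08).

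Tnfrsf21 (ENSRNOG00000011517) encodes death receptor 6, which also carries a death domain. Its vehicle libraries were at 111, 98.8 and 109 CPM, its α-GalCer libraries at 111, 113 and 112 CPM and its TL libraries at 83, 82.5 and 85.4 CPM. The TL libraries were the lowest of the 9, and vehicle replicate 2, the library that stood apart on the second component, was the lowest of the other 6. Mean levels were 106 ± 6.7, 112 ± 1.14 and 83.7 ± 1.55 CPM for vehicle, α-GalCer and TLs (SD, n = 3). Tnfrsf21 was 1.27-fold lower with TLs than with vehicle (log2 fold change -0.35, SE 0.059, 95% interval -0.48 to -0.22, edgeR adjusted p = 0.00103). Its log2 fold change against α-GalCer was -0.42 (SE 0.059, edgeR adjusted p = 2.79e-04). The size of the fall against vehicle was near the minimum of 0.3 required for a call, and it was -0.40 when vehicle replicate 2 was left out.

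Tnfrsf1b (ENSRNOG00000016575) encodes TNF receptor 2, a receptor for TNF that has no death domain. It was at 129, 124 and 129 CPM in vehicle and at 129, 130 and 121 CPM with α-GalCer. With TLs the libraries held 329, 306 and 326 CPM. The vehicle and α-GalCer libraries covered the same range, and the TL libraries were all more than 2 times higher. The means were 127 ± 3.26, 127 ± 4.69 and 320 ± 12.2 CPM (SD, n = 3) for vehicle, α-GalCer and TLs. The TL level was 2.52-fold that of vehicle (log2 fold change 1.33, SE 0.055, edgeR adjusted p = 2.29e-08) and 2.53-fold that of α-GalCer (log2 fold change 1.34, SE 0.055, edgeR adjusted p = 2.18e-08).

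Cflar (ENSRNOG00000012473), the caspase-8 inhibitor gene, was at 46.9, 36.4 and 46.4 CPM in the vehicle libraries. It was at 49.9, 45.1 and 41.9 CPM with α-GalCer and at 244, 228 and 232 CPM with TLs. The low vehicle value was again replicate 2, the α-GalCer libraries overlapped those of vehicle, and no TL library came near either group. Means were 43.3 ± 5.91, 45.6 ± 4.04 and 235 ± 8.37 CPM for vehicle, α-GalCer and TLs (SD, n = 3). Cflar rose 5.42-fold with TLs against vehicle (log2 fold change 2.44, SE 0.1, 95% interval 2.22 to 2.66, edgeR adjusted p = 2.29e-08) and 5.14-fold against α-GalCer (log2 fold change 2.36, SE 0.1, edgeR adjusted p = 2.76e-08). Without vehicle replicate 2 its log2 fold change against vehicle was 2.33. By size of the rise against vehicle Cflar ranked 80 of 12602 genes, Fas 128 and Tnfrsf1b 283.

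Counting could assign reads to more than 1 gene at some of these loci. In the RefSeq annotation of GRCr8, a newer assembly than the one the counts were made on, Cflar overlapped Casp8, the gene of caspase-8 itself, by 118 bases and shared 7895 bases with a long non-coding RNA gene on the other strand. Tnfrsf1b shared its span of 31162 bases with a gene model known only as LOC103692519. Tnfsf15 shared 10967 bases with a pseudogene and Fas 107 bases with a small nuclear RNA gene, while Tnfrsf21 overlapped none. The strand setting of the counting is not given in the sources used here, so reads in shared stretches cannot be told apart.

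Between α-GalCer and vehicle none of the 5 genes was called, and 0% of the 12602 tested genes were called. By edgeR 370 genes (2.94%) had an unadjusted p under 0.05, and DESeq2 called 2 genes. Fas was among those 370, and the other 4 genes were not. The log2 fold change was 0.24 for Tnfsf15 (95% interval -0.25 to 0.72), -0.01 for Tnfrsf1b (-0.13 to 0.12), 0.07 for Tnfrsf21 (-0.06 to 0.2) and 0.08 for Cflar (-0.14 to 0.3). For these 4 genes the interval included 0 and the libraries overlapped. Fas was the exception in both, with a log2 fold change of 0.19 (95% interval 0.01 to 0.37), libraries that did not overlap, and an edgeR adjusted p of 0.99994. Groups without overlap were found for 6.74% of all tested genes in this comparison. Without vehicle replicate 2 the log2 fold change of Fas was 0.14 (edgeR adjusted p = 0.529). The upper bounds of these intervals stayed below the lower bounds of the rises with TLs for Tnfsf15, Fas, Tnfrsf1b and Cflar.

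**Figure D2:**
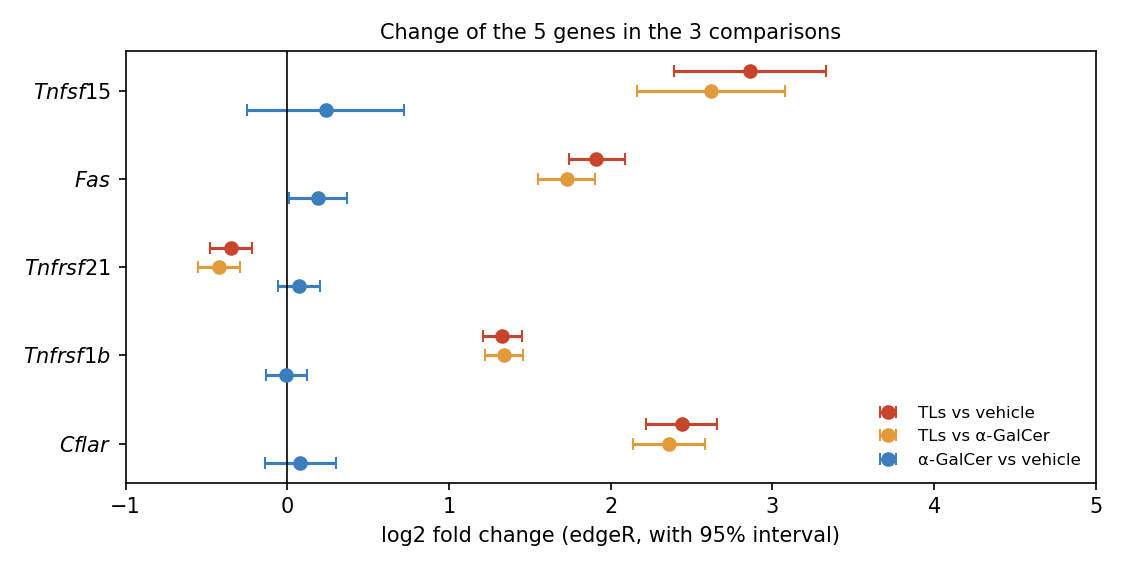
Log2 fold change of each gene (points, edgeR) with its 95% interval (bars) for TLs against vehicle, TLs against α-GalCer, and α-GalCer against vehicle. Intervals of the TL comparisons lie to the right of 0 for 4 genes and to the left for Tnfrsf21, and those of α-GalCer against vehicle include 0 except for Fas (0.01 to 0.37).

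The receptors and Cflar were then compared within each library, as the log2 level of a gene minus that of Cflar, a measure on which the scaling of the library has almost no effect. Fas rose with TLs but by less than Cflar. For every 100 Cflar counts there were 29.3, 34.9 and 30.8 Fas counts in the vehicle libraries and 30, 36.7 and 35.5 in the α-GalCer libraries. The TL libraries had 20, 22.8 and 22.9. The TL libraries were the lowest of the 9 and did not overlap the others. Relative to Cflar, Fas was lower by 1.45-fold with TLs than with vehicle (log2 difference -0.54, SE 0.13, 95% interval -0.83 to -0.25, limma adjusted p = 0.00235) and by 1.56-fold than with α-GalCer (log2 difference -0.64, SE 0.13, limma adjusted p = 7.56e-04). Without TL replicate 1 the former difference was -0.47 and missed the threshold (limma adjusted p = 0.0135).

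Tnfrsf21, which fell while Cflar rose, moved most against it. Its counts per 100 Cflar counts were 237, 271 and 236 in vehicle, 222, 251 and 267 with α-GalCer, and 34, 36.2 and 36.8 with TLs. The TL libraries were far below the other 6, which overlapped. No transcript lengths were joined, so these ratios compare groups and not the amounts of both transcripts. The log2 difference was -2.79 against vehicle (SE 0.12, limma adjusted p = 4.39e-08) and -2.78 against α-GalCer (SE 0.12, limma adjusted p = 5.51e-08). Tnfrsf1b, the receptor without a death domain, rose by less than Cflar as well, from 276, 339 and 278 counts per 100 Cflar counts in vehicle, and 259, 288 and 290 with α-GalCer, to 135, 135 and 141 with TLs. The TL libraries were again the lowest and did not overlap the others. Its log2 difference was -1.11 against vehicle (SE 0.12, limma adjusted p = 7.09e-06) and -1.03 against α-GalCer (SE 0.12, limma adjusted p = 1.36e-05).

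The ligand Tnfsf15 was the one member that did not fall behind Cflar. There were 10.3, 8.88 and 12.1 Tnfsf15 counts per 100 Cflar counts in vehicle, 14.3, 10 and 10.8 with α-GalCer, and 13.6, 14.5 and 14.4 with TLs. The TL libraries were above the vehicle libraries, and α-GalCer replicate 1 lay among the TL libraries. The log2 difference of 0.42 against vehicle (SE 0.16, 95% interval 0.06 to 0.78, limma adjusted p = 0.0282) did not pass the threshold, nor did that of 0.27 against α-GalCer (95% interval -0.1 to 0.63, limma adjusted p = 0.133).

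In the exact permutation test, two-sided, each of Fas, Tnfrsf21 and Tnfrsf1b gave p = 0.1 against both groups, the smallest value that 3 libraries against 3 allow, and Tnfsf15 gave p = 0.1 and p = 0.3. The falls of the 3 receptors relative to Cflar are to be read against the rest of the genes. Because Cflar rose more than nearly all genes, 98.1% of 12601 tested genes were called relative to it against vehicle (97.8% lower) and 97.9% against α-GalCer (97.5% lower). Lagging behind Cflar was thus not particular to the receptors.

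**Figure D3:**
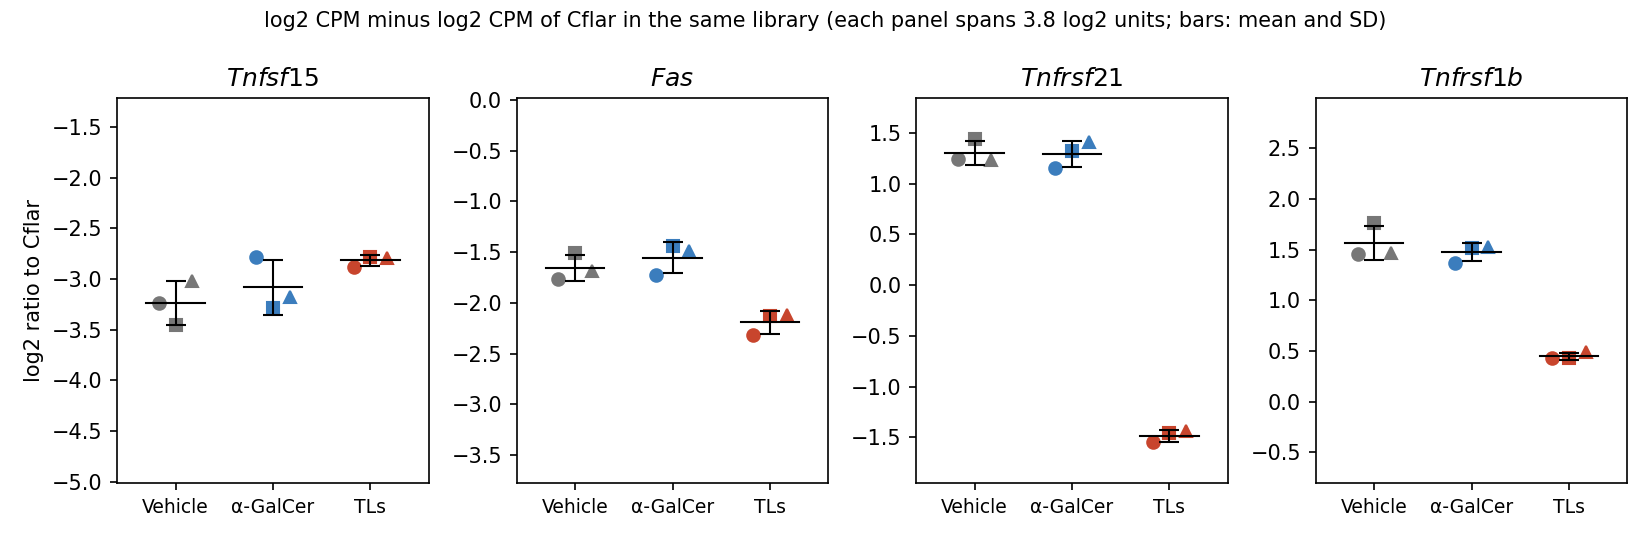
Log2 level of Tnfsf15, Fas, Tnfrsf21 and Tnfrsf1b minus the log2 level of Cflar in the same library, for vehicle, α-GalCer and TLs, in panels of equal span. Points are libraries (circle, square and triangle for replicates 1, 2 and 3), and bars are the mean and SD of 3 libraries. The TL libraries are lowest for the 3 receptors, with a step of -2.79 against vehicle for Tnfrsf21 and of -0.54 for Fas.

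Other genes of the pathway were taken from lists by role. Of 107 listed entries, 31 genes had a symbol here and all 31 were tested. Since symbols came from a table of genes the study had called against vehicle, of which 38.9% rose and 37.7% fell here among the 1839 tested, the counts below are not independent evidence of a response or its direction. Of the 31, 21 rose with TLs against vehicle, 8 fell and 2 did not pass, with a median log2 fold change of 0.56 against -0.2 for all tested genes with a symbol. Against α-GalCer 21 rose, 8 fell and 2 did not pass, with a median of 0.59 against -0.16. None of the 31 passed between α-GalCer and vehicle by edgeR (median -0.01). An unadjusted p under 0.05 was found by edgeR for 4 of them, and for 2.94% of all tested genes. Of these 4, Fas and Traf4 were higher with α-GalCer, and Ngfr and Tnfaip1 were lower. The necroptosis list (Ripk1, Ripk3, Mlkl and Zbp1) had no gene with a symbol. Tnf, Faslg, Tnfrsf1a, Fadd and Casp8 had none either and were not analysed here, so neither the ligand of Fas nor the target of c-FLIP can be set beside the 5 genes.

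All 4 ligand genes found, of 17 listed, rose with TLs against vehicle (median log2 fold change 1.68) and against α-GalCer (1.2). After Tnfsf15, these were Tnfsf18 and Tnfsf9, costimulatory ligands for T cells, and Tnfsf12, which encodes TWEAK. Tnfsf9 was at 6.73 to 9.42 CPM in vehicle, 8.87 to 10.9 CPM with α-GalCer and 15.1 to 17.3 CPM with TLs, a log2 fold change of 1.03 against vehicle (SE 0.15, edgeR adjusted p = 2.88e-04). Tnfsf18 was scarce, its libraries summing to 12 counts in vehicle, 20 in α-GalCer and 57 in TLs (log2 fold change 2.34, SE 0.4, edgeR adjusted p = 0.00107). Tnfsf12 differed little, at 97 to 115 CPM in vehicle and 127 to 134 CPM with TLs (log2 fold change 0.32, SE 0.067, edgeR adjusted p = 0.00377). Leaving out vehicle replicate 1 or 3 or any 1 of the TL libraries ended the call of Tnfsf12 against vehicle (log2 fold change 0.27 to 0.34, adjusted p from 0.0121 to 0.0193), as did upper quartile scaling (0.25, adjusted p = 0.0141 by edgeR). Against α-GalCer, any 1 of the TL or α-GalCer libraries left out ended the call of Tnfsf18 (1.59 to 1.8, adjusted p from 0.0133 to 0.0224), and DESeq2 on all 9 libraries did not call it either (1.7, adjusted p = 0.0125). The call of Tnfsf9 against α-GalCer was lost without TL replicate 2 or 3 or α-GalCer replicate 1 or 2 (0.68 to 0.73, adjusted p from 0.0103 to 0.0119).

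The receptors with a death domain went in both directions. Of the 3 found among 7 listed, Fas rose while Tnfrsf21 and Ngfr, the gene of the low-affinity neurotrophin receptor, fell (median -0.35 against vehicle). Ngfr was at 7.72 to 9.66 CPM in vehicle, 5.88 to 7.38 CPM with α-GalCer and 3.08 to 3.57 CPM with TLs (log2 fold change against vehicle -1.34, SE 0.16, edgeR adjusted p = 8.83e-05). The 3 groups of libraries did not overlap, with TLs lowest and vehicle highest. Non-overlap was found for 46.1% of all tested genes between TLs and vehicle, 51.0% between TLs and α-GalCer and 6.74% between α-GalCer and vehicle. In the last of these comparisons Ngfr was not called (log2 fold change -0.34, edgeR adjusted p = 0.99994). Of the 5 receptors without a death domain found among 19 listed, 4 rose (median 1.33 against vehicle). Cd40, the receptor through which T cells license dendritic cells, was at 13.4 to 17.4 CPM in vehicle and at 45.3 to 50.7 CPM with TLs (log2 fold change 1.71, SE 0.11, edgeR adjusted p = 5.58e-07). Tnfrsf14 was at 7.27 to 8.9 CPM in vehicle, 6.51 to 6.64 CPM with α-GalCer and 40.6 to 57 CPM with TLs, where the SD was 18.1% of the TL mean. Tnfrsf26 rose by 0.56 on the log2 scale and Relt fell by 0.39 (SE 0.095, edgeR adjusted p = 0.00907). The call of Relt was lost against vehicle without any 1 of the vehicle or TL libraries or α-GalCer replicate 1 (-0.43 to -0.34, adjusted p from 0.0109 to 0.0441), and against α-GalCer without TL replicate 1 or 3 or α-GalCer replicate 1 or 3 (-0.46 to -0.35, adjusted p from 0.0147 to 0.0216). The call of Tnfrsf26 against α-GalCer was lost without TL replicate 2 or 3 or α-GalCer replicate 3 (0.47 to 0.52, adjusted p from 0.0107 to 0.016).

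Downstream of the receptors, 3 of 11 genes of the death-inducing signalling complex and caspases were found, and 2 rose and 1 fell with TLs against vehicle (median 0.4). Beside Cflar the riser was Dffa, whose product holds the apoptotic DNase inactive until caspases cleave it. It was at 48.9 to 52.7 CPM in vehicle and at 64.1 to 68.6 CPM with TLs (log2 fold change 0.4, SE 0.063, edgeR adjusted p = 6.41e-04). Casp2 was at 45.3 to 49.9 CPM in vehicle and fell to between 28.5 and 29.6 CPM with TLs (log2 fold change -0.69, SE 0.066, edgeR adjusted p = 1.51e-05). The call of Dffa against α-GalCer, at 0.3, was lost without TL replicate 2 or 3 or α-GalCer replicate 3 (0.29 each, adjusted p from 0.0182 to 0.0195) and with upper quartile scaling (0.23, adjusted p = 0.0152 by edgeR).

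Of 27 adaptors, ubiquitin ligases and deubiquitinases of TNF receptor signalling, 6 were found, and 5 rose (median log2 fold change 0.75 against vehicle). Tnip1, whose product restrains NF-κB signalling and protects cells from TNF-induced death, was at 162 to 184 CPM in vehicle, 158 to 165 CPM with α-GalCer and 494 to 499 CPM with TLs (log2 fold change against vehicle 1.54, SE 0.058, edgeR adjusted p = 1.15e-08). Birc3, an inhibitor of apoptosis and ubiquitin ligase of the TNF receptor complex, was at 56.4 to 60.9 CPM in vehicle and at 124 to 136 CPM with TLs (log2 fold change 1.15, SE 0.073, edgeR adjusted p = 6.64e-07). Map3k14, the kinase that starts the non-canonical NF-κB pathway, rose by 0.5 and Tank by 0.62 on the log2 scale, and Traf4 by 0.88. Tab2 was at 0.35 and did not pass (edgeR adjusted p = 0.0129). It passed by DESeq2 (0.36, adjusted p = 0.00171), without the filter on low counts (0.35, 0.00641), with at least 10 counts in every library (0.36, 0.0095), and without vehicle replicate 3 (0.42, 0.00858) or α-GalCer replicate 2 (0.37, 0.00462). The call of Traf4 against α-GalCer was lost without TL replicate 2 or 3 or α-GalCer replicate 1 or 3 (0.55 to 0.61, adjusted p from 0.0112 to 0.0143).

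Both pro-survival genes of the BCL2 family found, of 5 listed, rose (median 0.7 against vehicle). Bcl2l1, which encodes BCL-XL, was at 173 to 194 CPM in vehicle and at 307 to 326 CPM with TLs (log2 fold change 0.79, SE 0.061, edgeR adjusted p = 2.89e-06), and Bcl2l2 rose by 0.62. The 3 pro-apoptotic members found, of 11 listed, did not share a direction (median 0.35). Pmaip1, which encodes the BH3-only protein NOXA, rose (log2 fold change 0.54, SE 0.064, edgeR adjusted p = 8.07e-05), whereas Bmf, another BH3-only gene, was at 47.2 to 51.3 CPM in vehicle and fell to between 30.1 and 34.1 CPM (log2 fold change -0.63, SE 0.096, edgeR adjusted p = 5.09e-04). Bax was at 0.35 and did not pass (edgeR adjusted p = 0.0734), except without vehicle replicate 2 (0.48, adjusted p = 0.00992). Of 7 listed genes with a Tnfaip name, 5 were found, of which Tnfaip2 and Tnfaip1 rose and 3 of the Tnfaip8 family fell (median of the 5 genes -0.45). Of these 3, Tnfaip8l2 and Tnfaip8l3 are named for likeness to Tnfaip8 and not for induction by TNF. Tnfaip2 was at 217 to 227 CPM in vehicle and at 561 to 570 CPM with TLs (log2 fold change 1.33, SE 0.047, edgeR adjusted p = 7.92e-09), the same log2 size as Tnfrsf1b. Tnfaip8, Tnfaip8l2 and Tnfaip8l3 fell by 0.58, by 0.45 and by 1.12 on the log2 scale. The call of Tnfaip8l2 was lost against vehicle without any 1 of the TL libraries or α-GalCer replicate 2 (-0.48 to -0.43, adjusted p from 0.01 to 0.0239) and in a fit of the 6 libraries of both groups alone (-0.44, adjusted p = 0.0151 by edgeR), and against α-GalCer without any 1 of the TL or α-GalCer libraries (-0.45 to -0.38, adjusted p from 0.0169 to 0.036).

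**Figure D4:**
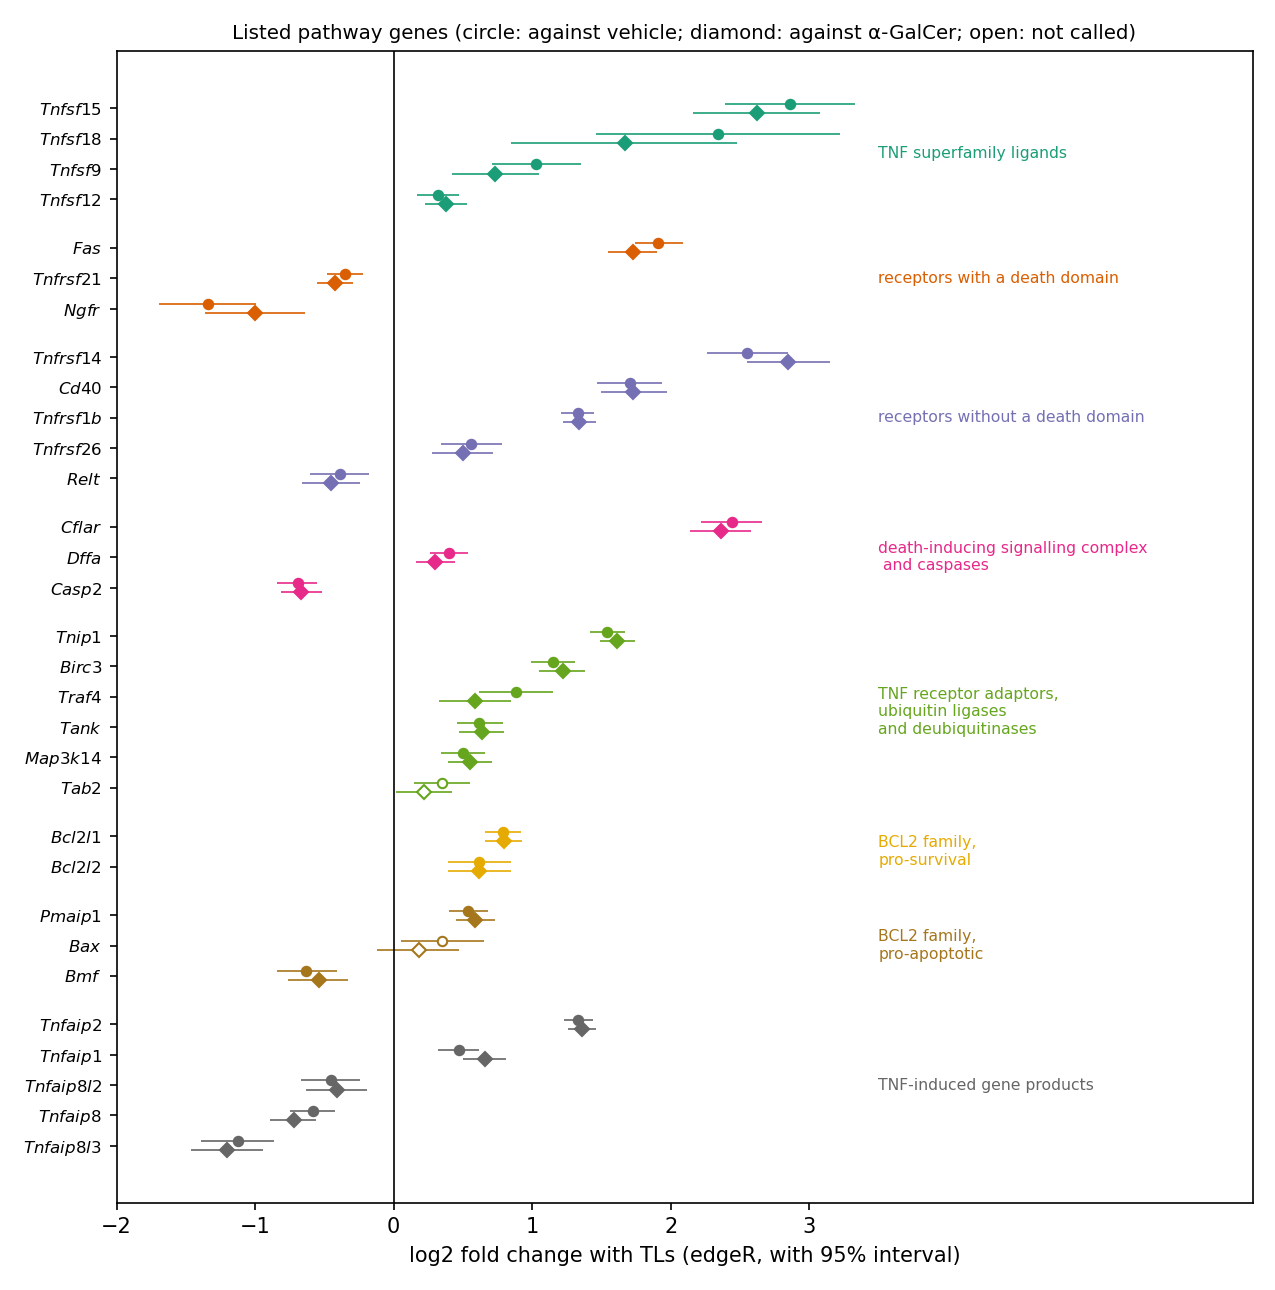
Log2 fold change (edgeR, with 95% interval) of the 31 listed pathway genes with TLs against vehicle (circles) and against α-GalCer (diamonds), grouped by role. Filled symbols passed the test and open ones did not. All ligands lie to the right of 0, and the receptors with a death domain lie on both sides, from 1.91 for Fas to -1.34 for Ngfr.

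The genes whose levels followed each of the 5 most closely over the 9 libraries were named by the highest Pearson correlation of log2 CPM, among 1765 genes with a symbol and an average log2 CPM of at least 1. Because the 9 points share libraries and the step between TL libraries and the others, these values describe likeness of pattern and carry no p. For Cflar they were Thbs1 (0.9989), Rnf144b (0.9988) and Abca1 (0.9985), of which Thbs1 and Abca1 rose by more than Cflar, with log2 fold changes of 3.08 and 3.11 against vehicle. For Tnfrsf1b they were Tnfaip2 (0.9989), Nfkb1 (0.9989), which encodes the p105 precursor of an NF-κB subunit, and Fyb1 (0.9987), with log2 fold changes of 1.33, 1.29 and 1.79. For Fas they were the cytokine gene Il33 (0.9978), Mras (0.9969) and Pvr (0.9969), with 3.28, 1.18 and 0.85.

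For Tnfsf15 the closest were Ero1a (0.9971), Map4k4 (0.9953) and Actn4 (0.9940), which all rose by less than Tnfsf15, with log2 fold changes of 0.74, 0.69 and 0.83. For Tnfrsf21, the one member that fell, they were Il6r (0.9947), the gene of the interleukin-6 receptor, Herc3 (0.9945) and Pcyox1 (0.9925), with log2 fold changes of -0.39, -1.2 and -1.16 against vehicle.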

How the data were processed

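The authors sequenced poly-A RNA as paired-end reads, trimmed these with fastp, aligned them by HISAT2 and deposited raw counts per Ensembl gene ID from featureCounts, without normalization. The submitters' processing notes name the build Rnor_6.0. Tool versions, the annotation and how strand or multi-mapping reads were handled are not given in the sources used here. Symbols came from the study's table of called genes, of which 1999 rows were held and 284 were not. It paired 1981 IDs with a symbol, 1839 of them tested, and values in it were not used.

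Counts were analysed in R 4.3.3 with edgeR 4.0.16 (filterByExpr, TMM, quasi-likelihood F-test over 9 libraries with group as the term). The study's NOISeqBIO test was not repeated, and its thresholds were kept. Each standard error was derived from the F statistic as the size of the log2 fold change over the root of F. Levels relative to Cflar were tested with limma 3.58.1 on log2 CPM with a prior count of 2, with p adjusted by Benjamini-Hochberg over all genes tested. The genes named are the 5 members, from each list up to 6 tested genes by adjusted p and any that went against its list, and 3 genes most like each member. The members and lists were chosen with earlier results of these data known. Alternatives were RLE and upper quartile scaling, DESeq2 1.42.0, limma-voom, no filter, at least 10 counts in every library, a replicate block, the 6 libraries of 2 groups, prior counts of 0.5 and 5, and leaving out each library. Scripts were tested on simulated data. 1 listed gene is not reported here, and list counts leave it out.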

Additional observations from a re-analysis of the deposited data

How the results depend on the processing

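Against vehicle and against α-GalCer, the 5 genes kept their direction and their call in all 17 alternatives. Without 1 library, the log2 fold change against vehicle ranged from 2.66 to 3.03 for Tnfsf15, from 1.31 to 1.36 for Tnfrsf1b, from -0.40 to -0.32 for Tnfrsf21, from 1.87 to 1.95 for Fas and from 2.33 to 2.50 for Cflar. Relative to Cflar, Fas against vehicle ranged from -0.59 to -0.47 and missed the threshold at -0.47 without TL replicate 1. Between α-GalCer and vehicle, the values of Tnfrsf1b, Cflar and Tnfsf15 changed sign when 1 library was left out. They ranged from -0.03 to 0.03 for Tnfrsf1b (0.01 without vehicle replicate 1 or 3), from -0.03 to 0.14 for Cflar and from -0.01 to 0.41 for Tnfsf15. For Tnfsf15 the value was 0.24 on all 9 libraries and -0.01 without α-GalCer replicate 1. The cause of these changes was not tested. In that comparison 2 genes were called by DESeq2, 2 without the filter on low counts, and 0 to 1 with 1 library left out. Without vehicle replicate 2, 1472 of 12786 genes had an unadjusted p under 0.05, against 370 of 12602. With upper quartile scaling, calls were 1002 higher and 1614 lower against vehicle, and 1000 and 1742 against α-GalCer, where TMM gave 1231 and 1219, and 1241 and 1321. No clear pairing of the libraries by replicate number was seen. Same-numbered libraries correlated in their deviations at -0.06 to 0.12, and differently numbered ones at -0.14 to 0.1. In both other groups, 2 of 9 libraries correlated best with their own number. Correlations this weak cannot show whether the numbers mark shared assays. A replicate block gave 2256 and 2332 called genes, against 2450 and 2562, and 0 between α-GalCer and vehicle. With the block Relt was no longer called against vehicle (edgeR adjusted p = 0.0161). Tnfsf18 was scarce, with 12 counts over the vehicle libraries.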
